A study of Mus musculus with 70 samples.

Results

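CD45+ cells of uninjured hindlimb muscle were the leukocytes recovered from the tissue before any damage. They were represented by 3 of the 70 libraries of the series, numbered 1 to 3 in the labels, and were chosen by those labels alone. Each was set against the 9 other day 0 libraries of the same experiment: 3 of CD31+ cells, the endothelial gate, 3 of muscle mesenchymal stromal cells (MmSCs) and 3 of muscle satellite cells (MuSCs), the stem cells of the myofibre. All 12 libraries came from C57BL/6J mice that received neither injury nor other treatment. Muscle was digested with enzymes, the suspension went through 2 rounds of flow sorting, and 1000 cells per library gave polyadenylated RNA for sequencing. A gate on CD45 takes every leukocyte together, so each value below is an average over a mixture of cell types. The gate alone does not separate cells resident in the tissue from those in its blood vessels. In such bulk samples fewer cells of a type and less RNA per cell cannot be told apart. The labels tie no library to an animal and give no age or pooling for these libraries. The spread behind each p-value is thus the spread over libraries only, and it may be technical.

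Skeletal muscle at rest keeps a population of tissue macrophages in its connective tissue sheaths and along its vessels, together with smaller numbers of dendritic cells, mast cells and lymphocytes. Macrophages clear debris, bind immune complexes and recycle iron, and they depend on the growth factor receptor Csf1r. Dendritic cells carry antigen to lymphocytes, mast cells store proteases and histamine in granules, and blood leukocytes pass through the muscle's capillaries. The question put to the data was which of these cells the CD45+ gate held on day 0.

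The libraries held 2252373 to 7519352 counts, and the 3 CD45+ libraries held 4404658, 3479617 and 3323481. Levels are in CPM, counts relative to the library total after scaling by trimmed mean of M-values, and 3 counts in a library correspond to 0.52 to 1.06 CPM. Replicate libraries correlated at 0.957 to 0.980 (Pearson, log2 scale, across genes). CD45+ library 3 was the farther of the 3 from the others, and several lineages named below were uneven over the CD45+ libraries, with mast cell genes and globins highest in library 1, granule genes of young neutrophils in library 2 and B cell genes in library 3. The gene of the gate, Ptprc, which encodes CD45, was at 732, 808 and 911 CPM in CD45+ libraries 1, 2 and 3 and at most 3.98 CPM in the other 9. The genes of the other gates were low, with Pecam1 (CD31) at 26.5, 35.5 and 87.1 CPM against a mean of 2129 CPM in CD31+ cells, and Pdgfra, a stromal cell gene, at 1.48, 0.601 and 0.897 CPM against 587 CPM in MmSCs. Those genes mark or defined the sort, and their levels are a check of the labels and no finding.

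Among 14830 genes tested, 4274 were higher in CD45+ cells than the mean log level of the 3 other populations (28.8% of all genes tested) and 3883 were lower (26.2%), at an adjusted p under 0.05 in edgeR's quasi-likelihood test. In the single comparisons 25.0%, 27.9% and 29.0% of genes were higher in CD45+ cells than in CD31+ cells, MmSCs and MuSCs, and 25.5%, 28.5% and 27.5% were lower. A gene confined to 1 other population can lie above such a mean, so a stricter call was used throughout. A gene is called enriched where it was higher in CD45+ cells in each of the 3 pairwise comparisons, with an adjusted p under 0.05 and a log2 difference of at least 2 (4-fold), and depleted where it met the mirror rule. By these rules 1088 genes were enriched (7.34% of those tested) and 849 were depleted (5.72%). The levels of the CD45+ libraries did not overlap those of the other 9 for 1084 of the enriched genes. The rule selects for such separation in the same values, so this is a description and adds no support.

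**Figure D1:**
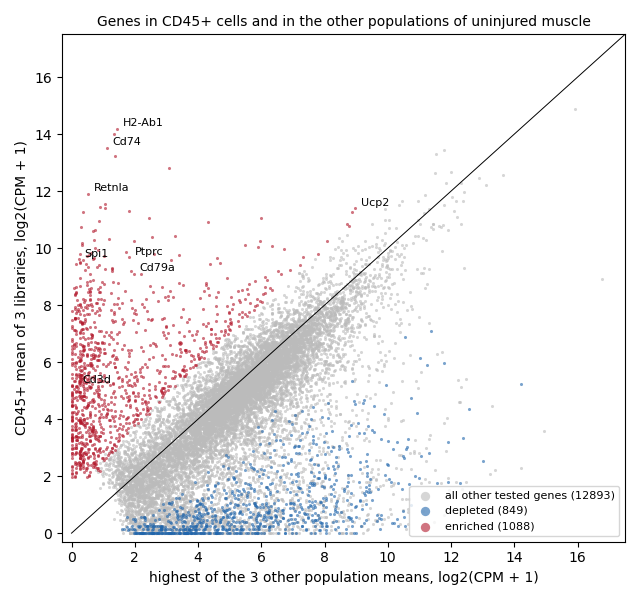
Each point is 1 of the 14830 tested genes, with the mean level in the 3 CD45+ libraries on the vertical axis and the highest mean among CD31+ cells, MmSCs and MuSCs on the horizontal axis, both as log2(CPM + 1). The 1088 enriched genes (red) lie above the diagonal, most of them near 0 in each other population, with H2-Ab1 and Cd74 near its top, and the 849 depleted genes (blue) lie low on the right.

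The largest differences from every other population lay in genes of antigen presentation and of phagocytes. H2-Ab1, the beta chain of the MHC class II molecule I-A (chromosome 17, 34257689 to 34269419, plus strand, GRCm38), reached 19062, 19832 and 16744 CPM, while the highest of the other 9 libraries was at 3.06 CPM. Its fitted log2 difference was 13.42 ± 0.43 against MuSCs (adjusted p = 1.5e-11). Lyz2, the lysozyme of macrophages and neutrophils (chromosome 10, 117277331 to 117282321, minus strand), was at 18827, 15999 and 14742 CPM and differed by 13.37 ± 0.31 against MmSCs (adjusted p = 1.4e-12). Cd74, the invariant chain that escorts class II molecules, was at 12032, 12503 and 10426 CPM and differed by 13.26 ± 0.48 against CD31+ cells (adjusted p = 3.7e-11). Retnla, a secreted protein of alternatively activated macrophages, was at 4424, 4827 and 2312 CPM and differed by 12.88 ± 0.48 against MmSCs (adjusted p = 4.2e-11). These 4 genes were separated from each other population by more than 12 log2 units, and of them Retnla was the least even, with library 3 lowest.

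The other genes with the largest values of the smallest of the 3 pairwise differences were C1qc, which ranked between Cd74 and Retnla, and then Rnase6, H2-Aa, Cd300c2, S100a8, Tyrobp, Lilra6, Iglc3, Il1b, Cd53 and Cd48. Rnase6, a secreted antimicrobial ribonuclease, was at 218, 218 and 234 CPM with no count in any other library, which makes it at least 273-fold higher. Cd300c2 and Lilra6, activating receptors of myeloid cells, were at 181, 165 and 189 CPM and 189, 121 and 154 CPM, also with no count in the 9 other libraries, which makes them at least 218-fold higher and at least 189-fold higher. Cd48, a ligand for receptors of NK cells and T cells, was at 407, 387 and 362 CPM against at most 0.173 CPM elsewhere, a ratio of 5593-fold (95% counting interval 1003 to 220965) to the highest other population. Among the 10 most abundant enriched genes was Ucp2, a mitochondrial carrier, at 2720.3, 2745 and 2586 CPM. It was also at 502 ± 49.1 CPM in CD31+ cells, below each CD45+ library, and its difference was 2.42 ± 0.23 against CD31+ cells (adjusted p = 6.2e-07).

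Counts of list members below are descriptions: a gene absent from the other populations can pass the filter on low counts only through CD45+ cells, so that the members which pass are nearly bound to differ. The shares of all tested genes to set beside them are 28.8% higher than the mean, 26.2% lower, 7.34% enriched and 5.72% depleted. Genes shared by all or most leukocytes had a similar summed level in the 3 CD45+ libraries. All 20 members of a list of such genes were enriched, and their summed level was 15617, 15483 and 16865 CPM, against 86.9 to 130.0 CPM in CD31+ cells, 37.2 to 73.1 CPM in MmSCs and 30.0 to 35.1 CPM in MuSCs. The median log2 ratio of CD45+ cells to the highest other population, with levels under 3 counts per library set to that floor, was 8.13 over the list. Over all genes tested the median was 0.10, where a gene below the mean of the other 3 populations was set against the lowest of them. Laptm5, a lysosomal membrane protein of blood cells, was at 3132, 2988 and 2807 CPM and differed by 11.51 ± 0.37 against CD31+ cells (adjusted p = 1.8e-11). Coro1a, an actin regulator, was at 2226, 2408 and 2873 CPM and differed by 9.99 ± 0.45 against CD31+ cells (adjusted p = 2.7e-10). Cd53, a tetraspanin, was at 1069, 1031 and 1187 CPM, a ratio of 4646-fold (95% counting interval 1589 to 22532) to the highest other population. The smallest differences of the list were those of Ptpn18, 3.44 ± 0.24 against CD31+ cells (adjusted p = 1.7e-08), and Evi2a, 3.89 ± 0.34 against MmSCs (adjusted p = 1.9e-07), so the least distinct members were still past 3 log2 units.

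Resident macrophage genes were high in libraries 1 and 2 and lower in library 3, with a median over the list of 162, 126 and 40.2 CPM per kb of exon in libraries 1, 2 and 3. Of 24 members, 24 were higher than the mean of the other populations and 21 were enriched. Csf1r, the receptor through which macrophages receive their survival signal, was at 2548, 2347 and 1467 CPM and differed by 8.87 ± 0.52 against MmSCs (adjusted p = 2.2e-09). Adgre1, which encodes the F4/80 antigen, was at 500.5, 420.4 and 286 CPM, a ratio of 1970.1-fold (95% counting interval 674 to 9557) to MmSCs. Mrc1, the mannose receptor, was at 823, 783 and 325 CPM and differed by 9.79 ± 0.61 against MmSCs (adjusted p = 4.1e-09). Cd163, which takes up haemoglobin bound to haptoglobin, was at 338, 302 and 121 CPM and differed by 8.79 ± 0.57 against MuSCs (adjusted p = 7.5e-09). The 3 chains of the complement component C1q, made in bulk by tissue macrophages, summed to 9132, 8329 and 4135 CPM, against at most 3.52 CPM in any other library. All of these were lowest in library 3, as were 23 of the 24 members, Cd14 being the exception.

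The 3 members that were higher than the mean but not enriched are also expressed in another population. Stab1, a scavenger receptor shared with endothelium, was at 1047, 999 and 404 CPM against 286 CPM in CD31+ cells and differed by 1.51 ± 0.35 against CD31+ cells (adjusted p = 0.0022), a call that DESeq2 did not make (1.53 (adjusted p = 0.086)). Mertk, a receptor for apoptotic cells, was at 48.0, 45.1 and 22.1 CPM against 51.9 ± 12.8 CPM in CD31+ cells, a difference of -0.43 ± 0.36 against CD31+ cells (adjusted p = 0.34) that did not pass the test.

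Markers reported for macrophages that lie along vessels were present as well. Lyve1, a hyaluronan receptor also used by lymphatic endothelium, was at 625, 334 and 120.0 CPM against 37.3 CPM in CD31+ cells, with every CD45+ library above each other library, and differed by 3.22 ± 0.97 against CD31+ cells (adjusted p = 0.012). This call was lost without CD45+ library 1, at 2.56 (adjusted p = 0.054), without CD31+ library 2, at 2.78 (adjusted p = 0.053), and in DESeq2, at 3.28 (adjusted p = 0.24). Folr2, a folate receptor, was at 308, 276 and 53.6 CPM, a ratio of 1582-fold (95% counting interval 437 to 13069) to MmSCs. Timd4, a receptor for phosphatidylserine, was at 94.9, 93.5 and 43.1 CPM, and Cd209f, a C-type lectin, at 552, 381 and 53.3 CPM. F13a1, the coagulation factor XIII subunit found in tissue macrophages, was at 1149, 951 and 434 CPM and differed by 9.72 ± 0.51 against MmSCs (adjusted p = 8.3e-10). Lyve1, Folr2 and Cd209f each differed more between libraries 1 and 3 than Csf1r or Adgre1, by 5.21, 5.75 and 10.4 times against 1.74 and 1.75 times. Differences among the 3 CD45+ libraries have no test.

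Promoters of the macrophage, common leukocyte, T cell and B cell lists were read for the letters GAGGAA and for the longer GAGGAAGT that contains it. GAGGAA is the core bound by the myeloid and B cell factor PU.1 (gene Spi1). Both strands were read, from 250 bases before to 50 after the start site in RefSeq (GRCm38.p6). Spi1 itself was at 829, 751 and 752 CPM, a ratio of 3762-fold (95% counting interval 1287 to 18248) to MmSCs. GAGGAA was in 12 of 20 promoters of 17 matched macrophage genes, 10 of 22 of 16 common leukocyte genes, 8 of 15 of 11 T cell genes and 4 of 13 of 10 B cell genes, beside 28.3% of all 32851 promoters. GAGGAAGT was in 3, 3, 1 and 0 of the same sets, beside 3.20% of all promoters. A match is a description of letters and not a bound site. The holders with the highest level were C1qc, Pf4, Cd53 and F13a1. In Cd53 and F13a1 the match begins 6 and 14 bases past the start site. For C1qc and for Pf4, a platelet chemokine that tissue macrophages also make (expressed here at 1594, 1542 and 532 CPM), it lies upstream, and the 250 bases before each start site are shown 5′ to 3′ along the gene with the match in capitals, the reverse complement ACTTCCTC in both.
C1qc, chr4:136892915-136893164, minus strand: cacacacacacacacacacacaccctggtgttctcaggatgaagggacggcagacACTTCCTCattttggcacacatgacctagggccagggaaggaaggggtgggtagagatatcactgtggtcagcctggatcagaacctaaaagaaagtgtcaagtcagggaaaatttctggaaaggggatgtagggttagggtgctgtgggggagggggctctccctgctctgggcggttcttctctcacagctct
Pf4, chr5:90772185-90772434, plus strand: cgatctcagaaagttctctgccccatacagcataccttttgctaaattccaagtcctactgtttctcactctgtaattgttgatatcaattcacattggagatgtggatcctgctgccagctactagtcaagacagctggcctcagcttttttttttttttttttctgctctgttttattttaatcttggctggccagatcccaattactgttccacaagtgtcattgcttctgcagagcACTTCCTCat
The match begins 195 bases before the start site in C1qc and 10 before it in Pf4.

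Antigen presentation genes were high in all 3 libraries. All 14 members of the MHC class II list were higher than the mean and 12 were enriched. The chains H2-Aa, H2-Ab1 and H2-Eb1 with Cd74 together took 4.84%, 5.02% and 4.19% of the scaled counts of CD45+ libraries 1, 2 and 3. Ciita, the transcriptional activator of class II genes, was at 247, 298 and 319 CPM and differed by 6.74 ± 0.31 against CD31+ cells (adjusted p = 2.7e-10). Cd86, a costimulatory ligand for T cells, was at 215, 193 and 134 CPM and differed by 8.75 ± 0.48 against MuSCs (adjusted p = 1.2e-09). The members that were not enriched were Cd80 and Cd40, whose differences were 1.08 ± 0.71 against MmSCs (adjusted p = 0.22) and 1.19 ± 0.20 against CD31+ cells (adjusted p = 1.4e-04). H2-Oa and H2-Ob, which restrain peptide loading in B cells, ran the other way over the libraries from the macrophage genes, at 58.6, 89.9 and 172 CPM and 162, 316 and 566 CPM.

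Genes of conventional dendritic cells followed the macrophage genes over the libraries only in part. Of 17 members 7, 7 and 3 were highest in libraries 1, 2 and 3, and 7, 2 and 8 were lowest there. Of 17 members 15 were higher than the mean and 13 were enriched. Xcr1, the chemokine receptor of the cross-presenting subset, was at 51.9, 76.7 and 45.8 CPM and differed by 6.68 ± 0.47 against CD31+ cells (adjusted p = 5.3e-07). Flt3, the growth factor receptor of the lineage, was at 17.1, 32.8 and 17.4 CPM and differed by 4.09 ± 0.62 against CD31+ cells (adjusted p = 1.1e-04). Cd209a, a lectin of monocyte-derived and dendritic cells, was at 1077, 1064 and 473 CPM and differed by 10.84 ± 0.57 against CD31+ cells (adjusted p = 6.4e-09). Ccr7, which guides dendritic cells and naive lymphocytes to lymph nodes, was at 153, 179 and 481 CPM and differed by 8.54 ± 0.70 against MmSCs (adjusted p = 8.7e-08). Zbtb46, a factor of the lineage also made by endothelium, was not called, at 21.8, 31.3 and 29.6 CPM against 109 ± 31.6 CPM in CD31+ cells. Fscn1, an actin bundler, was lower than the mean at 28.7, 8.12 and 14.7 CPM. Of 9 genes of plasmacytoid dendritic cells 3 were enriched, namely Siglech (130.1, 233 and 66.4 CPM), Ly6d (53.4, 158 and 291 CPM) and Spib (40.6, 63.8 and 147 CPM), of which the last 2 are also B cell genes. Siglech was highest in library 2 and the other two in library 3. Leaving out CD45+ library 1 gave 5 enriched members.

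Blood-type myeloid cells were detected beside the macrophages. Of 16 monocyte genes 15 were higher than the mean and 14 were enriched. Ccr2, the receptor that draws monocytes out of the blood, was at 492, 339 and 349 CPM and differed by 8.74 ± 0.30 against CD31+ cells (adjusted p = 2.4e-11). Ly6c2, the antigen of classical monocytes, was at 173, 147 and 336 CPM and differed by 5.71 ± 0.38 against CD31+ cells (adjusted p = 6.0e-08). Cx3cr1, the fractalkine receptor of patrolling monocytes and macrophages, was at 512, 394 and 453 CPM and differed by 8.20 ± 0.39 against MmSCs (adjusted p = 3.4e-10). Treml4, a receptor of non-classical monocytes, was at 73.4, 121 and 105 CPM, and Spn, which encodes CD43, was at 65.5, 94.7 and 71.8 CPM with no count elsewhere, at least 94.4-fold higher. Ace was lower than the mean, at 53.2, 65.3 and 52.4 CPM against 575 ± 87.0 CPM in MmSCs. Fn1, fibronectin, was higher than the mean but not enriched, at 1067, 891 and 913 CPM against 3337 ± 960.5 CPM in MmSCs. The monocyte genes did not share the ordering of the macrophage genes, with 8 of 16 highest in library 3 and 0 of 24 macrophage genes highest there.

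Neutrophil genes were present in each library. Of 16 members 9 were enriched, and 6 did not pass the filter on low counts. Il1r2, a decoy receptor that MmSCs also express, was tested and not enriched. S100a8, a subunit of calprotectin, was at 619, 358 and 1087 CPM, a ratio of 7674-fold (95% counting interval 1377 to 303150.1) to CD31+ cells. Csf3r, the receptor for the neutrophil growth factor, was at 361, 139.8 and 519 CPM and differed by 8.04 ± 0.76 against CD31+ cells (adjusted p = 1.6e-06). Mmp9, a stored gelatinase, was at 466, 226 and 355 CPM and differed by 8.77 ± 0.65 against MmSCs (adjusted p = 1.5e-07). Cxcr2, the chemokine receptor of mature neutrophils, was at 188, 62.9 and 305 CPM, with library 2 lowest and library 3 highest. The secondary granule genes Camp, Ngp and Ltf, transcribed in precursors in the marrow, followed another pattern. They summed to 1 count in library 1, 1241 counts in library 2 and 16 counts in library 3, or 0.247, 373 and 4.79 CPM. Library 2, which held the granule genes, was the lowest for Cxcr2 and S100a8. None of the 3 passed the filter, so they have no test. Mpo and Elane, of the earliest granules, had 3 counts or fewer in each CD45+ library.

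Mast cell genes were concentrated in library 1. Cpa3, Mcpt4, Cma1 and Tpsb2, the proteases of connective tissue mast cells, summed to 1919, 456 and 9.27 CPM, with at most 0.880 CPM in any other library. Mcpt4, a chymase, was at 583, 133 and 0.299 CPM, or 2358 counts in library 1 and 1 in library 3. Fcer1a, a chain of the IgE receptor, was at 28.9, 7.22 and 0 CPM. Only 4 of 14 members passed the filter (Kit, Cma1, Hdc and Gata2), of which Cma1 and Hdc were enriched. Hdc, the enzyme that makes histamine, was at 153, 56.2 and 295 CPM, highest in library 3 and lowest in library 2 like Cxcr2 and unlike the proteases, and differed by 3.87 ± 0.51 against CD31+ cells (adjusted p = 1.6e-05). The filter asks for counts in as many libraries as the smallest group has. Leaving out CD45+ library 3 let more members pass it, and 12 of 14 were then higher than the mean and 10 were enriched. Leaving out any 1 of the 9 other libraries also gave 11 or 12 members higher. The basophil gene Mcpt8 had 0, 0 and 1 counts. Of 8 eosinophil genes 3 were enriched and the other 5 did not pass the filter, and with a filter at a minimum count of 50 the list had 0 members called higher. Siglecf and Ccr3 were at 27.7, 7.52 and 10.5 CPM and 27.0, 6.32 and 6.28 CPM, while the granule gene Epx had no count in the 3 libraries.

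**Figure D2:**
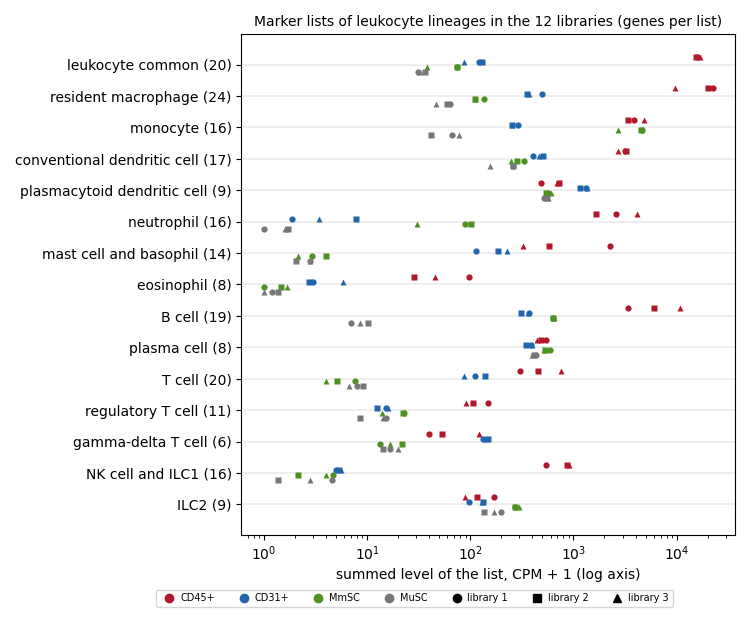
Each row is a list of marker genes (number of genes in brackets) and each symbol is the summed level of that list in 1 library, in CPM + 1 on a log axis, coloured by population and shaped by library number. The 3 CD45+ libraries (red) lie above all 9 others for 10 of the 15 lists. For the monocyte, plasmacytoid dendritic cell, plasma cell and ILC2 lists they overlap another population. For the plasmacytoid list they also lie below CD31+ cells, and for the ILC2 list below MmSCs. For the gamma-delta T cell list they lie below CD31+ cells and above MmSCs and MuSCs.

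B cell genes had the highest median per kb of the lymphoid lists. Of 19 members 18 were enriched. Cd79a, a signalling chain of the B cell receptor, was at 207, 484 and 956 CPM and differed by 7.52 ± 0.54 against MuSCs (adjusted p = 2.1e-08). Ighd, the delta constant region carried by mature naive B cells, was at 196, 523 and 1093 CPM and differed by 10.61 ± 0.82 against CD31+ cells (adjusted p = 2.3e-07). Pax5, the factor that holds B cell identity, was at 40.8, 68.9 and 158 CPM and differed by 6.90 ± 0.64 against CD31+ cells (adjusted p = 1.3e-06). Ebf1 was not called against the mean, at 19.5, 88.7 and 135 CPM against 573 ± 38.6 CPM in MmSCs. Each of the 19 members was lowest in library 1 and highest in library 3, and the summed level was 3412, 6057 and 10752 CPM. Of 8 plasma cell genes 3 were enriched, Tnfrsf17, Mzb1 and Irf4. Jchain, which joins secreted IgM and IgA, was at 1.48, 0 and 0.299 CPM, and Xbp1, a factor of secretory cells in general, was at 333, 324 and 305 CPM with a difference of 0.12 ± 0.12 against CD31+ cells (adjusted p = 0.42), the lowest of the other 3.

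T cell genes were distinct but low per kb. Of 20 members 20 were higher than the mean and 19 were enriched, and their summed level was 301, 450.2 and 756 CPM. Cd3e, a chain of the T cell receptor complex, was at 12.6, 29.2 and 40.4 CPM and differed by 6.16 ± 0.76 against CD31+ cells (adjusted p = 1.9e-05). Trac, the alpha constant region, was at 8.90, 16.5 and 42.2 CPM and differed by 5.57 ± 0.88 against CD31+ cells (adjusted p = 8.8e-05). The coreceptors Cd4 and Cd8b1 were at 15.1, 23.2 and 25.1 CPM and 16.6, 36.7 and 61.9 CPM. Cd247, the zeta chain, was the member that was not enriched, since CD31+ cells had 103 ± 23.1 CPM. All 20 were highest in library 3. Of 11 genes of regulatory T cells 2 were enriched, Tnfrsf18 and Il1rl1, and 1 was depleted. Of 3 genes of gamma-delta T cells tested 1 was enriched, Blk, which is also a B cell gene. In that list 2 genes were lower than the mean and 1 was depleted, beside 26.2% and 5.72% of all tested genes. The gamma-delta list has 9 members, of which 3 matched no symbol and were not analysed here and 3 did not pass the filter. Without CD45+ library 1 it had 2 enriched members. The defining genes of both kinds of cell were low, with Foxp3 at 0, 0 and 13 counts and Trdc at 1.48, 2.71 and 2.99 CPM. Il23r, a chain of the IL-23 receptor, had no count in CD45+ cells, which allows up to 3 counts per library.

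NK cell genes were more abundant per kb than T cell genes in each library. Of 16 members 15 were enriched and 1 was not tested, and the whole list summed to at most 4.59 CPM in any other library. Gzma, a granzyme, was at 63.5, 154 and 201 CPM, a ratio of 1946-fold (95% counting interval 349 to 76924) to MmSCs. Klrk1, the activating receptor NKG2D, was at 69.0, 89.6 and 71.2 CPM and differed by 6.72 ± 0.63 against MuSCs (adjusted p = 3.5e-07). Ccl5, a chemokine of NK cells and memory T cells, was at 155, 194 and 175 CPM and differed by 8.70 ± 0.47 against MuSCs (adjusted p = 6.4e-09). Klrb1c, the NK1.1 antigen, was at 23.7, 41.8 and 37.4 CPM and differed by 5.92 ± 0.68 against CD31+ cells (adjusted p = 1.0e-05). Of 9 genes linked to type 2 innate lymphoid cells 3 were enriched, among them Il1rl1, the IL-33 receptor that mast cells and regulatory T cells also carry, at 82.1, 55.9 and 34.1 CPM, with a difference of 5.59 ± 0.48 against MmSCs (adjusted p = 5.6e-07). Of that list 1 member was depleted. The cytokines of type 2 innate lymphoid cells, Il5 and Il13, had no count in CD45+ cells.

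The lists were set side by side on a scale of CPM per kb of exon, which removes gene length. The median over the list's genes in libraries 1, 2 and 3 was 162, 126 and 40.2 CPM per kb for macrophage genes, 28.2, 60.1 and 117 for B cell genes, 61.0, 57.2 and 65.3 for monocyte genes, 26.0, 29.7 and 43.9 for neutrophil genes, 20.1, 20.6 and 19.5 for dendritic cell genes, 8.49, 12.8 and 13.2 for NK cell genes, 15.7, 4.05 and 0.201 for mast cell genes and 3.57, 5.30 and 7.86 for T cell genes. Macrophage genes led in libraries 1 and 2, and B cell genes led in library 3. In library 3 the macrophage median was below those of B cells, monocytes and neutrophils. The ranges of macrophage, B cell and monocyte genes overlapped, so their order was not separated beyond the spread. Neutrophil genes lay below monocyte genes in each library, dendritic cell genes lay below both, and T cell genes lay below NK cell genes, while the mast cell range spanned those of NK cells and T cells. A list's level depends on which genes it holds and is no share of cells.

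**Figure D3:**
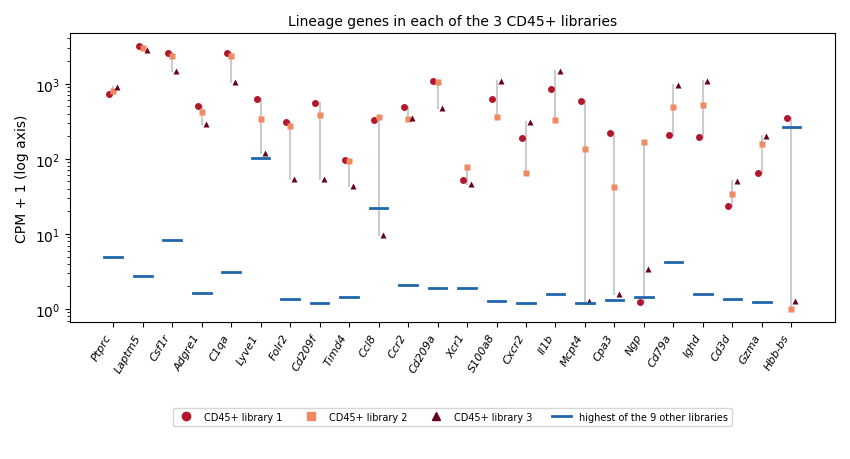
Level of 24 genes in each CD45+ library, in CPM + 1 on a log axis, with a blue bar at the highest of the 9 other libraries. Ptprc and Laptm5 are nearly level, macrophage genes from Csf1r to Ccl8 are lowest in library 3, Cd79a, Ighd, Cd3d and Gzma are highest there, Mcpt4 and Cpa3 drop below 1 CPM in library 3, and Ngp and Hbb-bs stand out in library 2 and library 1.

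The 3 CD45+ libraries thus shared their leukocyte genes and differed in several lineages. Of 519 enriched genes with a mean of at least 50 CPM, 378 stayed within 2-fold over the 3 libraries. Library 3 held 23 such genes at 2-fold or more above both others and 37 at that distance below both. For library 1 these counts were 1 and 24, and for library 2 they were 0 and 18. The summed macrophage level in library 3 was 0.437 times that in library 1, while the B cell, T cell and neutrophil sums were 3.15, 2.52 and 1.62 times it. The 10 enriched genes with the widest ratio were Cma1, Ccl8, Pla2g2d, Trem1, Cd209f, Mxd1, Cd209g, Cd209b, Cxcl2 and Fcna. Cma1 followed the mast cell proteases at 583, 140.4 and 8.08 CPM. Ccl8, a chemokine of perivascular macrophages, Pla2g2d, a secreted phospholipase, the lectins Cd209f, Cd209g and Cd209b, and Fcna, a ficolin, were all lowest in library 3. Trem1, Mxd1 and Cxcl2, genes of neutrophils and activated myeloid cells, were lowest in library 2 and highest in library 3, with Mxd1 at 138, 33.4 and 317 CPM. Ccl8 was the only 1 of the 10 that overlapped other populations, at 332, 358 and 8.68 CPM against 16.9 ± 4.05 CPM in MmSCs, and it differed by 3.78 ± 0.85 against MmSCs (adjusted p = 0.0021).

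Markers of the cells behind the other gates were low in CD45+ cells. The 12 endothelial genes summed to 95.7, 77.0 and 209 CPM, which as a mean is 0.690% of their level in CD31+ cells, and all 12 were lower than there (25.5% of all genes tested were). The 13 MmSC genes summed to 714, 583 and 729 CPM, or 0.337% of the level in MmSCs, and all 13 were lower than in MmSCs (28.5% of all genes tested were). Most of that sum was Gsn, an actin-severing protein, at 539.5, 424 and 478 CPM, and Dpp4 and Pi16 were at 35.6, 40.9 and 46.4 CPM and 29.9, 29.8 and 59.8 CPM. The 11 satellite cell genes summed to 151, 149 and 229 CPM, mostly Sdc4, a proteoglycan of many cell types, at 141, 135 and 219 CPM, and all 11 were lower than in MuSCs (27.5% of all genes tested were). The defining factors Pax7, Myf5 and Myod1 had no count in the 3 libraries. Pericyte and smooth muscle genes summed to 18.3, 7.52 and 32.9 CPM and adipocyte genes to 22.7, 19.8 and 35.3 CPM, the latter mostly Fabp4. Mbp, on the Schwann cell list, was enriched at 73.4, 55.9 and 76.9 CPM, while Sox10, the defining factor of those cells, had no count. Of the 8 myofibre genes tested 6 were lower than the mean (26.2% of all genes tested were) and none was higher. Acta1, skeletal actin, was at 54.1, 51.4 and 31.1 CPM against a mean of 64.6 CPM in CD31+ cells, the lowest of the other 3. The 4 globin genes summed to 525, 0.301 and 4.79 CPM and reached 423 CPM in a CD31+ library, so among CD45+ cells they were high in library 1 alone. The part of these markers in the results on other genes was not tested.

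Receptors of phagocytes came next. Of 11 Fc receptors and signalling adaptors 9 were enriched. Among them was Fcer1g, the shared signalling chain, at 1682, 1678 and 1356 CPM with a difference of 11.22 ± 0.32 against CD31+ cells (adjusted p = 9.4e-12). The inhibitory receptor Fcgr2b was at 947, 911 and 478 CPM and differed by 10.42 ± 0.55 against CD31+ cells (adjusted p = 9.0e-10). Fcgrt, the neonatal Fc receptor, was not called, at 840.4, 772 and 253 CPM against 859 ± 130.0 CPM in MmSCs. Of 16 sialic acid-binding and inhibitory receptors 15 were enriched, and Cd300a, which binds the lipids of dying cells, was even over the libraries at 397, 401 and 391 CPM. Tyrobp, the adaptor through which many of the activating receptors signal, was at 1798, 1716 and 1572 CPM, a ratio of 6364-fold (95% counting interval 2177 to 30861) to CD31+ cells.

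Of 17 complement genes 11 were enriched, namely the C1q chains, 7 receptors and properdin. Cfp, which encodes properdin, was at 1663, 1478 and 894 CPM and differed by 8.15 ± 0.41 against CD31+ cells (adjusted p = 6.3e-10). The anaphylatoxin receptors C5ar1 and C3ar1 were at 569.9, 427 and 489 CPM and 413, 372 and 266 CPM, and C3ar1 differed by 9.41 ± 0.38 against MmSCs (adjusted p = 4.4e-10). C3 itself was at 39.8, 22.9 and 56.8 CPM against 1385 ± 599 CPM in MmSCs, with every CD45+ library below every MmSC library.

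Pattern recognition genes separated into leukocyte and shared members. Of 23, 15 were enriched. Tlr7, Tlr9 and Tlr13, which sense nucleic acids in endosomes, were enriched, and Tlr9 was at 87.3, 101 and 74.5 CPM with a difference of 6.70 ± 0.46 against CD31+ cells (adjusted p = 6.9e-08). Their chaperone Unc93b1 was at 2179, 1767 and 1508 CPM and differed by 2.12 ± 0.17 against MuSCs (adjusted p = 5.4e-08). Tlr4, the receptor for endotoxin, was at 22.3, 26.5 and 19.7 CPM, with a difference of -0.09 ± 0.29 against MmSCs (adjusted p = 0.82) that did not pass the test, while its coreceptor Cd14 was at 506, 369.9 and 375 CPM and differed by 5.27 ± 0.31 against MmSCs (adjusted p = 2.0e-09). Tlr3 was at 10.9, 10.5 and 8.68 CPM and was not called. Of the 6 NADPH oxidase genes, which make superoxide, 5 were enriched, the exception being Cyba. Cybb, the catalytic subunit, was at 758, 661 and 646 CPM with a difference of 10.51 ± 0.43 against CD31+ cells (adjusted p = 6.3e-10).

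Lysosomal genes were higher in CD45+ cells but are expressed in each population. Of 20, 19 were higher than the mean, 16 were higher than in MmSCs and 1 was lower than there. The shares of all tested genes were 28.8%, 27.9% and 28.5%. The list summed to 45663, 40338 and 33598 CPM against 9944 to 12478 CPM in MmSCs. The enriched members were the 5 genes Ctsc, Ctss, Lgmn, Lyz1 and Lyz2. Lyz1 and Lyz2 are close copies, and the counting may share reads between them. Ctss, the cathepsin that trims the invariant chain, was at 2987, 2711 and 2436 CPM and differed by 11.07 ± 0.47 against CD31+ cells (adjusted p = 8.6e-10). Psap, the precursor of lysosomal lipid activators, differed by 1.14 ± 0.13 against MmSCs (adjusted p = 2.6e-06). Ctsl ran the other way, at 249.7, 217 and 101 CPM against 2032 ± 376 CPM in MmSCs. Of 12 genes of heme and iron handling 6 were enriched. Slc11a1, a metal pump of the phagosome, differed by 5.57 ± 0.34 against MmSCs (adjusted p = 3.8e-09), Slc40a1, the iron exporter ferroportin, by 2.43 ± 0.36 against MuSCs (adjusted p = 4.5e-05), and Hmox1, heme oxygenase, by 2.08 ± 0.19 against CD31+ cells (adjusted p = 3.6e-07), at 248, 285 and 289 CPM. Fth1, ferritin heavy chain, was at 3820.1, 3564 and 3304 CPM against 4219.9 ± 359 CPM in MmSCs, a difference of -0.24 ± 0.14 against MmSCs (adjusted p = 0.16).

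**Figure D4:**
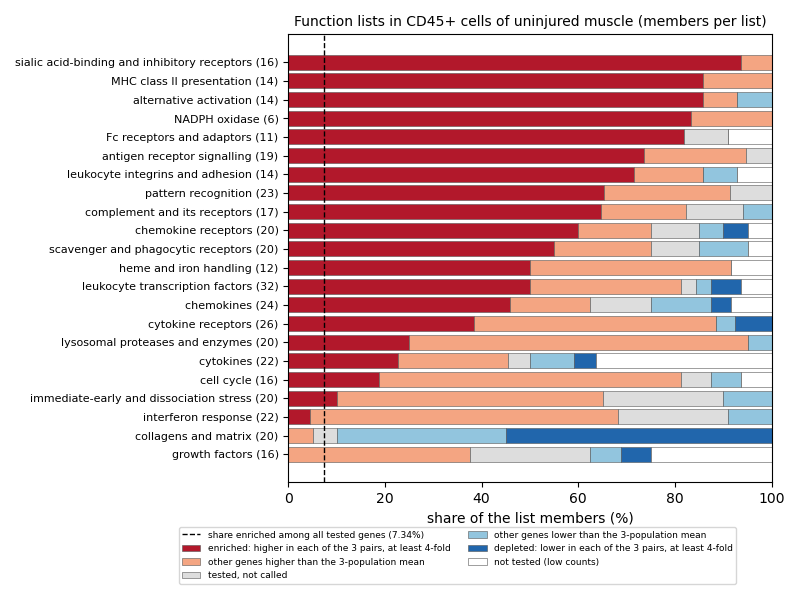
Share of the members of each function list that were enriched, otherwise higher, not called, lower, depleted or not tested in CD45+ cells, ordered by the share enriched. The dashed line marks the 7.34% of all tested genes that were enriched. Inhibitory receptors and MHC class II genes lie at the top, and collagens and growth factors, with no enriched member, at the bottom.

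Of 24 chemokine genes 11 were enriched and 1 was depleted, beside 7.34% and 5.72% of all tested genes. The highest per kb were Pf4 (1695 CPM per kb), Ccl6 (859 CPM per kb), Ccl8 (455 CPM per kb) and Ccl9 (213 CPM per kb). Ccl6 was at 1884, 1299 and 1440.5 CPM with a difference of 11.20 ± 0.36 against MuSCs (adjusted p = 1.5e-11), and Ccl9 at 829, 578 and 541 CPM with a difference of 10.58 ± 0.41 against MuSCs (adjusted p = 3.8e-09), and both are ligands of Ccr1. Ccl24, an eosinophil attractant of alternatively activated macrophages, was at 349, 372 and 73.6 CPM, lowest in library 3 like Ccl8. Ccl22, which attracts cells carrying Ccr4, was at 127, 4.81 and 5.98 CPM, high in library 1 alone. Ccl3, a ligand of Ccr1, was at 85.6, 29.8 and 69.1 CPM with no count elsewhere, at least 75.0-fold higher. The monocyte attractant Ccl2 was shared with MmSCs, at 92.7, 60.4 and 76.3 CPM and with a difference of 0.98 ± 0.28 against MmSCs (adjusted p = 0.010). This call was lost without CD45+ library 1, at 0.81 (adjusted p = 0.056), without MmSC library 1, at 0.82 (adjusted p = 0.053), and in the fit of 24 libraries, at 0.96 (adjusted p = 0.20). Other attractants were higher in stromal or endothelial cells. Ccl11, an eosinophil attractant, had 3, 0 and 0 counts in CD45+ cells and a mean of 736 CPM in MmSCs. Cxcl12, which retains leukocytes in tissues, was at 38.6, 32.8 and 29.6 CPM against 5047 CPM in CD31+ cells. Cxcl1, a neutrophil attractant, was depleted. The neutrophil attractant that CD45+ cells did carry was Cxcl2, at 55.1, 18.6 and 123 CPM, a ratio of 364-fold (95% counting interval 100.4 to 3011) to CD31+ cells.

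Of 20 chemokine receptors 12 were enriched. Ccr1 was at 226, 141 and 179 CPM. Cxcr5, which leads B cells into follicles, was at 55.6, 97.1 and 204 CPM, highest in library 3 like the B cell genes, and differed by 6.76 ± 0.68 against CD31+ cells (adjusted p = 1.1e-05). Cxcr4, the receptor for Cxcl12, was at 8.41, 8.42 and 20.6 CPM, a difference of 0.06 ± 0.59 against MuSCs (adjusted p = 0.94) that did not pass the test. Ackr3, the scavenging receptor for Cxcl12, was depleted, at 0.495, 0.601 and 0.598 CPM with a difference of -5.66 ± 0.39 against CD31+ cells (adjusted p = 1.4e-08).

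Among 22 cytokines 5 were enriched, Il1b, Il1rn, Tnf, Osm and Ebi3. Il1b, the inflammatory interleukin, was at 848, 331 and 1489.5 CPM, a ratio of 4979-fold (95% counting interval 1378 to 41115) to CD31+ cells. Osm, oncostatin M, was at 139, 48.1 and 229 CPM against at most 0.709 CPM elsewhere. Both were lowest in library 2 and highest in library 3, the order of Cxcr2 and Trem1, and the immediate-early genes Fos and Dusp1, which respond to tissue handling, had the same order at 1329, 683 and 1542 CPM and 1650.0, 825 and 2575 CPM. The part of neutrophils or of handling in the level of Il1b and Osm was not tested. Tnf was at 38.8, 30.7 and 38.6 CPM and differed by 3.60 ± 0.49 against CD31+ cells (adjusted p = 2.4e-05), and Il1rn, the antagonist of the IL-1 receptor, was at 67.5, 26.5 and 83.5 CPM and differed by 6.97 ± 0.65 against CD31+ cells (adjusted p = 4.0e-07). Il17a and Csf2 had no count in CD45+ cells, and Il6 had 1, 1 and 0. Of 26 cytokine receptor genes 23 were higher than the mean, 10 were enriched and 2 were depleted, beside 28.8%, 7.34% and 5.72% of all tested genes. The depleted ones were a signalling receptor for Il1b and 1 for Osm. Il1r1, the signalling receptor for IL-1, was depleted, at 2.23, 5.41 and 3.59 CPM with a difference of -2.31 ± 0.33 against CD31+ cells (adjusted p = 3.2e-05), and Osmr, a chain of the oncostatin M receptor, was depleted, at 0.495, 0 and 3.29 CPM with a difference of -3.76 ± 0.48 against MuSCs (adjusted p = 1.1e-05). Both ligands of Csf1r were lower than the mean. Il34 had no count in CD45+ cells and was at least 3.79-fold lower than in MuSCs, the population with the lowest level of the other 3, and Csf1 was at 13.6, 6.01 and 15.6 CPM against a mean of 192 CPM in MmSCs.

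**Figure D5:**
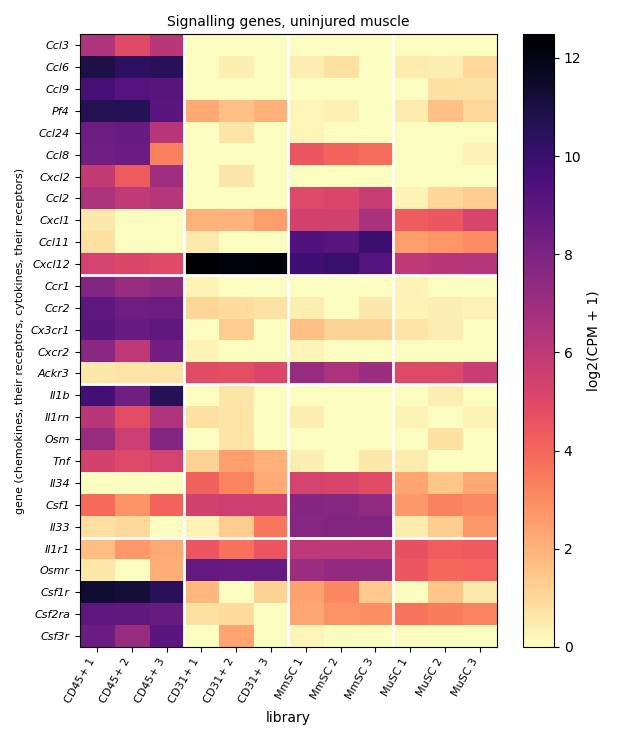
Level of 28 signalling genes in the 12 libraries as log2(CPM + 1), darker for higher, in 4 blocks from top to bottom: chemokines, chemokine receptors, cytokines and cytokine receptors. Ccl6, Ccl9, Il1b, Osm and Csf1r are dark in the 3 CD45+ columns alone, while Ccl11, Cxcl12, Csf1, Il34, Il1r1 and Osmr are dark in other columns.

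Of 14 genes of alternative activation 12 were enriched, beside 7.34% of all tested genes. Besides Retnla and Ccl24 these included Chil3, a chitinase-like protein that neutrophils and monocytes also make, at 128, 169.6 and 562 CPM with a difference of 8.99 ± 0.79 against CD31+ cells (adjusted p = 7.9e-07), and Mgl2, a lectin, at 1322, 1202 and 732 CPM with a difference of 3.78 ± 0.23 against MuSCs (adjusted p = 2.4e-08). Arg1, arginase 1, was low at 17.6, 12.6 and 8.97 CPM and differed by 2.73 ± 0.66 against MmSCs (adjusted p = 0.0026). Retnla and Mgl2 were lowest in library 3 and Chil3 was highest there. Of 32 leukocyte transcription factors 16 were enriched and 2 were depleted, beside 7.34% and 5.72% of all tested genes, so the depleted share was near that of all genes. Irf8 and Irf5, interferon regulatory factors of myeloid cells and B cells, differed by 4.10 ± 0.26 against MuSCs (adjusted p = 6.4e-09) and 5.13 ± 0.24 against MmSCs (adjusted p = 2.3e-10). Id3, an inhibitor of helix-loop-helix factors, was depleted, at 21.5, 29.8 and 56.5 CPM with a difference of -3.87 ± 0.28 against MmSCs (adjusted p = 2.2e-08).

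Other lists held enriched members at shares nearer the 7.34% of all tested genes. Of 22 interferon response genes 15 were higher than the mean, beside 28.8% of all tested genes, but 12 were lower than in CD31+ cells, beside 25.5%, and 1 was enriched (4.55%). That gene was Mx1, at 60.3, 58.3 and 42.5 CPM with a difference of 4.40 ± 0.66 against MmSCs (adjusted p = 9.0e-05). Irf7, a factor that amplifies the interferon response, had a difference of -0.23 ± 0.15 against CD31+ cells (adjusted p = 0.21), which did not pass the test. Of 20 immediate-early and stress genes 13 were higher than the mean and 2 lower, beside 28.8% and 26.2% of all tested genes. Against MuSCs 9 were higher and 4 lower, beside 29.0% and 27.5%. Only 2 of the 20, Atf3 and Egr2, were enriched (10%). Atf3 was at 237, 156 and 228 CPM with a difference of 3.15 ± 0.34 against MmSCs (adjusted p = 1.8e-06). Of 16 cell cycle genes 13 were higher than the mean, beside 28.8% of all tested genes, and leaving out 1 library gave 12 to 14. Mki67, Birc5 and Aurkb were enriched (18.8%). Mki67 was at 31.4, 23.8 and 33.5 CPM with a difference of 2.21 ± 0.86 against MuSCs (adjusted p = 0.041). Aurkb was at 42.8, 17.7 and 38.3 CPM with a difference of 2.36 ± 0.93 against MuSCs (adjusted p = 0.042). Leaving out CD45+ library 1 left 0 of the 16 enriched and leaving out CD45+ library 3 left 1. The Mki67 call was lost without any 1 CD45+ library or without MuSC library 1 or 3, with adjusted p between 0.056 and 0.080, and that of Aurkb without CD45+ library 1 or 3 or any 1 MuSC library, between 0.051 and 0.12. DESeq2 called neither, with adjusted p of 0.14 and 0.28.

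Of the function lists, matrix genes had the most depleted members. Of 20 collagen and matrix genes 18 were lower than the mean and 11 were depleted, beside 26.2% and 5.72% of all tested genes. Sparc, a matrix glycoprotein, was at 46.5, 31.3 and 32.0 CPM and differed by -6.13 ± 0.26 against MuSCs (adjusted p = 1.1e-10), and Col4a1, a chain of basement membrane collagen, was at 7.17, 9.02 and 9.27 CPM and differed by -5.12 ± 0.20 against MuSCs (adjusted p = 7.1e-11). Fn1 was the only member that was higher than the mean. The 10 genes with the largest depletion were Gpc4, Ghr, Ttc23, Ret, Arhgap28, Rcan2, Tmem47, Prkd1, Bok and Gjc1. All but Bok had no count in the 3 CD45+ libraries. Gpc4, a glypican that binds growth factors at the cell surface, was at least 59.3-fold lower than in CD31+ cells, the lowest of the other 3, where it was at 50.3 ± 10.3 CPM. Ghr, the growth hormone receptor, was at least 38.5-fold lower than in MuSCs and at 62.2 ± 10.1 CPM in MmSCs. Ret, a receptor for glial cell line-derived growth factors, was at least 29.2-fold lower than in CD31+ cells. Bok, a BCL2 family member, had 1, 0 and 1 counts and its level in MmSCs, the lowest of the other 3, was higher by a ratio of 325-fold (95% counting interval 89.7 to 2687).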

How the data were processed

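Polyadenylated RNA was counted in 12 day 0 libraries, 3 for each of 4 sorted populations, with groups and numbers taken from the labels. The authors deposited raw counts for 55011 gene symbols. STAR 2.7.3a, featureCounts and the build mm10 (GRCm38) are named in the submitters' processing notes. Neither annotation nor strand setting is given in the sources used here, so reads of close copies, overlapping genes or antisense pairs cannot be told apart. edgeR 4.0.16 in R 4.3.3 fitted the 12 libraries with 1 mean per population: genes past filterByExpr (minimum count 10), TMM scaling (factors 0.772 to 1.26), the quasi-likelihood F-test and Benjamini-Hochberg adjustment over 14830 genes. The biological coefficient of variation was 22.9%. Differences are log2 ± SE, with SE the size of the difference divided by the square root of F. They are given against the highest of the other 3 populations for genes above their mean, and against the lowest for genes below it, where it held over 3 counts. With no count the fold is a bound at a floor of 3 counts per library, averaged over the 3 libraries of a group. With 1 to 3 counts it is a ratio with a 95% exact interval, which covers counting error only. In simulated counts for the comparison with the mean of 3 populations, 94 of 100 genes changed 4-fold and 58 of 100 changed 2-fold were recovered. There were 4 false calls, with 14141 genes tested in the simulation, the changed ones included. All other genes had 1 mean shared by the 4 populations. The changed genes were not among the lowest counted and went up and down in equal numbers. Recovery where populations differ as widely as here was not tested.

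Members of 45 lists, the lists and the tests were chosen with earlier results of these data known. A list member could be named. Also named were, among enriched genes of at least 50 CPM with no overlap between libraries, the 15 with the largest smallest pairwise difference and the 10 most abundant, then the 10 enriched genes with the widest ratio over CD45+ libraries and the 10 most depleted genes whose average level was 3 or more in log2 CPM. A few list members are not reported here by name. Unnamed models, mitochondrial and sex-linked genes were left out. Exon lengths and coordinates are from GENCODE M21 (GRCm38). Counts of the replicates of a population differed beyond counting noise (chi-square per degree of freedom 5.35 to 18.1). Alternatives were other scaling, filters, DESeq2 1.42.0, a replicate block, all 24 libraries of the experiment, the 9 other libraries as 1 group and each library left out.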

Additional observations from a re-analysis of the deposited data

How the results depend on the processing

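No count of genes higher, lower, enriched or depleted moved by over 1.5 times under DESeq2, RLE scaling, either filter, the fit of 24 libraries or the omission of any library. With the 9 other libraries as 1 group, where differences among the populations count as spread, 2083 genes were higher than the others and 2035 lower, and of the 22 interferon genes 2 were higher. Without a filter the median log2 difference from the mean over all genes was -0.25. Leaving out 1 library gave 3947 to 4467 genes higher than the mean and 3486 to 3910 lower. It gave 3459 to 3834 higher and 3511 to 3897 lower against CD31+ cells, 3714 to 4303 and 3972 to 4551 against MmSCs, and 4107 to 4531 and 3746 to 4205 against MuSCs. It gave 1082 to 1223 enriched and 800 to 870 depleted genes. Of the 1088 enriched genes 1031, 1051 and 1026 were also enriched without CD45+ library 1, 2 and 3.

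Of 2915 refits of named genes 2875 kept their direction and their side of the threshold, 30 lost the call, 6 gained one and 4 changed sign. Leaving out 1 library gave Cxcr4 -0.49 to 0.46 and Tlr4 -0.21 to 0.008 on the log2 scale. Cxcr4 changed sign against MuSCs without CD45+ library 3, at -0.49 (adjusted p = 0.56), and without MuSC library 1 or 2, at -0.06 (adjusted p = 0.96) and -0.12 (adjusted p = 0.90), and Tlr4 against MmSCs without MmSC library 3, with an adjusted p of 0.99; neither difference was called with all libraries, and the cause was not tested. Counts of list members higher than the mean were within 1.5 times in all refits for 24 of 45 lists, and 53 of 855 refits moved, most often in the mast cell and gamma-delta T cell lists. Summed levels in CD45+ library 3 over library 1 on plain totals, an alternative chosen after seeing the data, were 0.479 for macrophage, 3.45 for B cell, 2.76 for T cell, 1.85 for NK cell, 1.77 for neutrophil and 0.155 for mast cell genes. Deviations of same-numbered libraries correlated between -0.00975 and 0.112 over 18 pairs, and those of differently numbered libraries between -0.0900 and 0.0169. Whether the numbers pair the libraries cannot be settled from such correlations, since the labels tie no library to an animal. With the numbers as a replicate block 4200 genes were higher than the mean and 3828 lower. With 3 libraries of 1000 cells per population, a gene with no count may have been present at up to 3 counts per library.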
